A study of Arabidopsis thaliana with 12 samples.

Results

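The 9 genes described here are induced in Arabidopsis leaves by darkness or by a lack of sugar. They are ASN1 (AT3G47340), SEN1, also DIN1 (AT4G35770), DIN2 (AT3G60140), DIN3 (AT3G06850), DIN4 (AT3G13450), DIN10 (AT5G20250), MIOX2 (AT2G19800), MIOX4 (AT4G26260) and BCAT2 (AT1G10070), 9 of the 33602 loci in the deposited table. The set was chosen by name with RPKM values of these samples already known, among them the high ASN1 and MIOX2 levels of lba1, so its levels are given as a description and without a test. RNA came from whole seedlings of accession Columbia, 11 days old and all raised in continuous light on half-strength MS medium (a standard plant salt mixture) with 2% sucrose. The 6 groups were lba1 upf3-1 (labelled upf1-/-upf3-/-), lba1 (upf1-/-), upf3-1 (upf3-/-), wild type kept for 4 h in liquid MS medium with cycloheximide at 10 µg/ml, wild type kept for 4 h in that medium alone (mock), and untreated wild type. Whether the liquid medium held sugar is not given in the labels. UPF1 is the helicase, and UPF3 a partner protein, of nonsense-mediated decay (NMD), which degrades mRNAs with early stop codons. lba1 is a missense allele of UPF1, so UPF1 transcript levels do not check its label. Cycloheximide blocks translation, on which that decay depends.

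When sugar runs short, the kinase SnRK1 (KIN10 and KIN11 in Arabidopsis) switches plant cells from growth to the use of reserves. Genes of the dark-inducible (DIN) set then rise, and most of them encode enzymes that take apart amino acids, oligosaccharides or cell wall sugars for carbon. Asparagine, made by ASN1, carries the nitrogen that this breakdown sets free. Sugar and light normally keep these genes low.

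The deposited table holds 1 column of RPKM (read numbers scaled by gene length and by the read total of each column) for each group of 2 libraries. No spread between plants can therefore be computed, and no difference here has a replicate check. Implied column totals lay between 82560000 and 90920000 reads, which makes counting error small for most of the 9 genes. Differences are given on the scale log2(RPKM + 0.5), which understates the change of low genes, each with its 95% counting error. Higher and lower mean a gap of 2-fold or more on that scale between both columns, which sorts genes by size of difference without testing them. The background for this rule is the set of 14079 genes whose 6 columns averaged 5 RPKM or more. UPF3 was at 4.82 RPKM in lba1 upf3-1 and 4.95 in upf3-1, against 13.1 in wild type. Green leaf markers (RBCS1A, LHCB1.3, CA1 and RCA) were present in every column, but they summed to 597 RPKM in lba1 upf3-1, 13690 in lba1, 15172 in upf3-1, 2373 with cycloheximide, 6694 in mock and 16799 in wild type. The 4 seed storage markers (CRU1, CRU3, OLEO1 and SESA1) summed to 320 RPKM in lba1 upf3-1, 62.1 in lba1, 14.1 in upf3-1, 796 with cycloheximide, 4.51 in mock and 20.1 in wild type, and with cycloheximide nearly all of this was SESA1 (795 RPKM). The 4 root markers (CASP1, EXPA7, IRE and PER11) summed to 4.29 RPKM in lba1 upf3-1, 22.7 in lba1, 17.1 in upf3-1, 0.601 with cycloheximide, 21.1 in mock and 13.1 in wild type. No marker of the 3 lists was at 0 in any column. Even so, SESA1 in wild type (0.017 RPKM) rested on about 1 read and OLEO1 in mock (0.03 RPKM) on about 2. The part of tissue make-up in the results that follow was not tested. In whole seedlings, fewer cells of a type and less RNA per cell cannot be told apart.

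Sequence upstream of the transcript start is printed for 4 members whose levels differed most between columns or that had the highest levels. ASN1 and MIOX2 were high in lba1, lba1 upf3-1 and cycloheximide seedlings, DIN10 was highest in lba1, and DIN2 was high in lba1 upf3-1. Each run is the 250 bases before the annotated start, 5′ to 3′ on the gene's strand, from RefSeq TAIR10.1. That assembly keeps the nuclear chromosomes of TAIR10, the build named in the submitters' processing notes, and the deposited table itself carries no coordinates. Capitals mark matches on either strand to 7 short motifs: CACGTG (known as the G-box), the G-box core written ACGTG, the proline dehydrogenase promoter element ACTCAT (bound by bZIP factors), the rice amylase promoter element TATCCA (known for sugar repression), the I-box core GATAA, the evening element AAAATATCT and the telo-box AAACCCTA. ACGTG lies within every CACGTG, and other matches may overlap.
ASN1, chr3:17441432-17441681, minus strand: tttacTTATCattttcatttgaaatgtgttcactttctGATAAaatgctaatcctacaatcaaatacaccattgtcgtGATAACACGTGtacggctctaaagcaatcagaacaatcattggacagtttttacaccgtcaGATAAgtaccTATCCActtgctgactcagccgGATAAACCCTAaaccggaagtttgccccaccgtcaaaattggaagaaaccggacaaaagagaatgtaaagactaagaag
MIOX2, chr2:8533780-8534029, minus strand: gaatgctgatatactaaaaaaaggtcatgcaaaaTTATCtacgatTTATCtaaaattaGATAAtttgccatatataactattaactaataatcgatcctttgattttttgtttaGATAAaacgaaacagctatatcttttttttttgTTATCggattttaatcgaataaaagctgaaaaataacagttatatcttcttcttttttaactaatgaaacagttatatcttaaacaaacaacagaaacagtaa
DIN10, chr5:6833314-6833563, plus strand: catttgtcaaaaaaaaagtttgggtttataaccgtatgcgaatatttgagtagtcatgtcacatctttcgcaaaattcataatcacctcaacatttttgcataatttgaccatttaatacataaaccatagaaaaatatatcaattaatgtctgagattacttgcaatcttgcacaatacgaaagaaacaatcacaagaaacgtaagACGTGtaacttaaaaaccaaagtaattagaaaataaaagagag
DIN2, chr3:22216290-22216539, plus strand: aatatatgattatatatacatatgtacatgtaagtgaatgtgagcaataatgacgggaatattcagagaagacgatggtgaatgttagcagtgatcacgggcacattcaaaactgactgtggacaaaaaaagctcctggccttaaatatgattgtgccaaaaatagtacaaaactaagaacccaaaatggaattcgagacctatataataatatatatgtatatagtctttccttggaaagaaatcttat

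The ASN1 window held a G-box, the amylase element, the telo-box and 5 I-box cores, and part of it lies under the neighbouring coding locus AT3G47341. Among the windows of 27443 protein-coding genes, 6.49% held the G-box, 13.6% the amylase element, 4.49% the telo-box and 54.9% the I-box core. Of the 9 members, 1 held the G-box, 4 held its core (ASN1, DIN4, DIN10 and BCAT2, against 22.9% of all windows), 2 held the amylase element (ASN1 and MIOX4) and 7 held the I-box core. The proline dehydrogenase element and the evening element were found in 0 of the 9, against 12.3% and 2.36% of all windows. The MIOX2 window held 5 I-box cores and no other motif of the 7, the DIN10 window a single G-box core, and the DIN2 window none. These matches describe letters in a window of this length and carry no statement on binding.

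ASN1, the asparagine synthetase of dark-treated and sugar-starved tissue, had 85.4 RPKM in lba1 upf3-1, 51.7 in lba1, 7.57 in upf3-1, 45.0 with cycloheximide, 6.21 in mock and 7.21 in untreated wild type. The 6 columns thus fell into 3 high ones (lba1 upf3-1, lba1 and cycloheximide) and 3 low ones. On the log2 scale the difference from wild type was 3.48 ± 0.07 in lba1 upf3-1, 2.76 ± 0.07 in lba1 and 0.07 ± 0.09 in upf3-1, the last within counting error. Cycloheximide seedlings differed from mock by 2.76 ± 0.07, whereas mock differed from wild type by −0.20 ± 0.09.

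ASN2 and ASN3, the other asparagine synthetase genes, stood below their controls in the columns where ASN1 was high, so the make-up of the family differed more than its sum. ASN2, which is favoured by light, had 9.16 RPKM in lba1 upf3-1, 47.0 in lba1, 70.3 in upf3-1, 23.4 with cycloheximide, 66.3 in mock and 82.3 in wild type. ASN1 made up 87.6% of the summed RPKM of the 3 genes in lba1 upf3-1, 49.0% in lba1, 9.12% in upf3-1, 63.6% with cycloheximide, 7.59% in mock and 7.35% in wild type. The sum itself was 97.5 RPKM in lba1 upf3-1, 106 in lba1 and 98.1 in wild type, and 70.7 with cycloheximide against 81.8 in mock. RPKM is scaled by gene length, so these shares compare transcript levels and not read numbers.

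**Figure D1:**
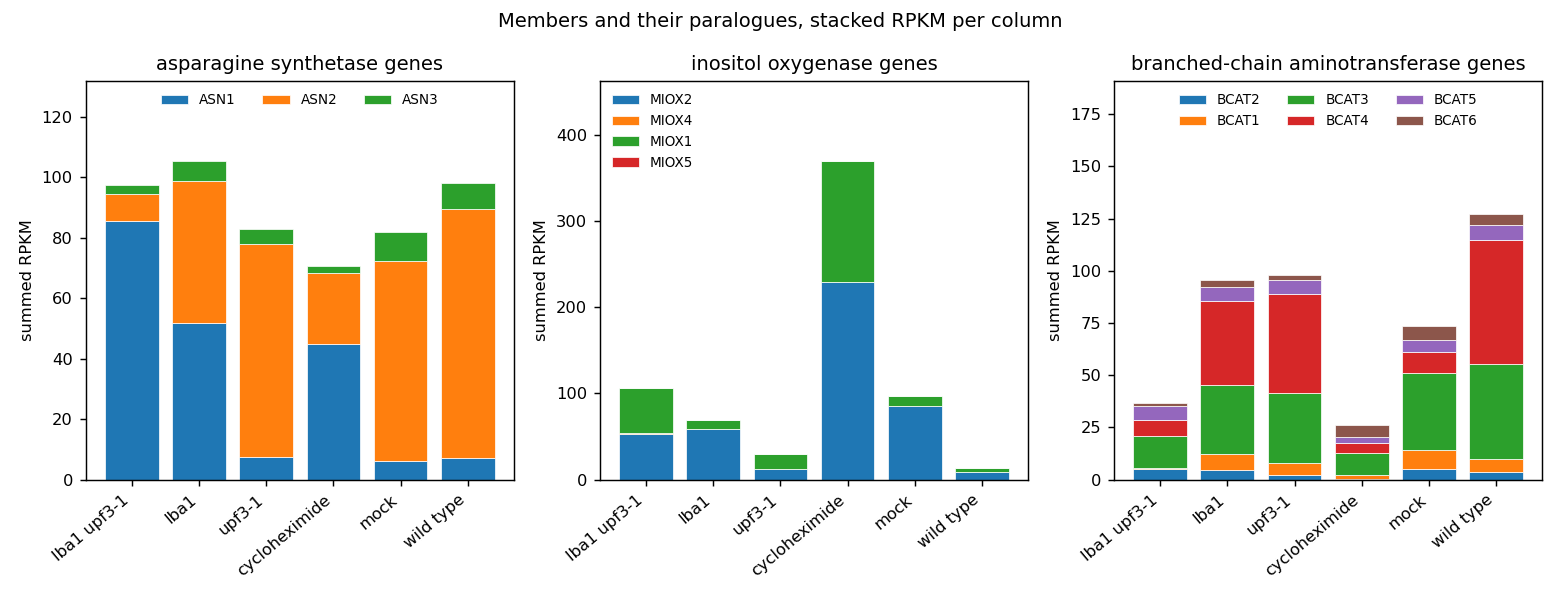
Stacked RPKM of the asparagine synthetase genes (left), inositol oxygenase genes (middle) and branched-chain aminotransferase genes (right) in the 6 deposited columns, each column standing for a group of 2 libraries. ASN1 (blue, left) makes up 87.6% of its family in lba1 upf3-1 and 7.35% in wild type, and MIOX2 and MIOX1 together reach 370 RPKM with cycloheximide.

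Of the 10 listed genes of asparagine, glutamate and proline metabolism, 6 were higher and 2 lower in lba1 upf3-1 than in wild type (median log2 difference 1.75, against 0.12 over all 14079 genes, of which 22.1% were higher and 21.2% lower). GDH2, a glutamate dehydrogenase gene, was at 1090 RPKM in lba1 upf3-1 against 71.1 in wild type, and ASPGB1, an asparaginase gene, at 18.4 against 1.61. The proline dehydrogenase genes PRODH1 (126 RPKM in lba1 upf3-1, 28.1 in wild type) and PRODH2 (16.7 and 1.37) were also higher. The 2 lower genes were ASN2 and ASN3. In lba1 1 of the 10 was higher (GDH2) and 0 lower, beside 4.77% and 1.93% of all genes. The upf3-1 numbers were 0 and 0, beside 3.81% and 0.547% of all genes. With cycloheximide PRODH2 (51.8 against 3.49 RPKM), ASPGB1 (29.4 against 3.07) and PRODH1 (307 against 87.1) were higher than in mock, and 6 of the 10 were lower, among them GDH2 (74.7 against 383). Over all genes 13.3% were higher and 44.1% lower with cycloheximide.

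MIOX2, an inositol oxygenase that turns myo-inositol into glucuronate, had 53.2 RPKM in lba1 upf3-1, 58.5 in lba1, 11.7 in upf3-1, 229 with cycloheximide, 85.5 in mock and 8.77 in wild type. Unlike ASN1 it was already high in mock, and the cycloheximide column stood above all others. It was higher than wild type by 2.53 ± 0.08 in lba1 upf3-1 and 2.67 ± 0.08 in lba1, with 0.40 ± 0.10 in upf3-1. The difference was 1.42 ± 0.03 for cycloheximide against mock and 3.21 ± 0.08 for mock against wild type.

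MIOX4, a second gene of the same enzyme, was at 0.992 RPKM in lba1 upf3-1 and between 0.008 and 0.072 in the other 5 columns, where it rested on about 1 to 9 reads. Its only interpretable level was that of lba1 upf3-1, with about 133 reads and a counting interval of 0.830 to 1.18 RPKM, and its differences are the least certain of the 9. MIOX1, also an inositol oxygenase gene, stood above wild type in every other column, at 52.0 RPKM in lba1 upf3-1, 11.0 in lba1, 18.1 in upf3-1, 141 with cycloheximide and 11.5 in mock, against 4.49 in wild type. Unlike MIOX2, it was thus past 2-fold in upf3-1 too (log2 1.90 ± 0.12). Of 7 measured genes of inositol synthesis and glucuronate salvage, 1 (MIOX1) was higher and 3 lower in lba1 upf3-1 than in wild type. Among all genes 22.1% were higher and 21.2% lower. The 3 were MIPS1 (0.750 against 139 RPKM), MIPS2 (6.92 against 19.5) and MIPS3 (1.18 against 11.7), all of inositol synthesis. VTC4, also listed, was within 2-fold (11.4 against 15.5). MIPS1 (49.5 RPKM) and MIPS2 (3.93) were lower than wild type in mock too, and MIPS3 (4.70) in upf3-1.

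DIN2 encodes the beta-glucosidase BGLU30. It had 339 RPKM in lba1 upf3-1, 1.23 in lba1, 4.36 in upf3-1, 0.072 with cycloheximide, 4.42 in mock and 3.12 in wild type. The lba1 upf3-1 column stood alone, 109-fold above wild type as a plain ratio of RPKM, while lba1 was lower than wild type and the cycloheximide column rested on about 14 reads. On the log2 scale DIN2 was at 6.55 ± 0.10 in lba1 upf3-1, −1.07 ± 0.16 in lba1 and 0.42 ± 0.13 in upf3-1, each against wild type, and at −3.11 ± 0.13 for cycloheximide against mock. It ranked 13th of 14079 genes from the top for lba1 upf3-1 against wild type. Without the lba1 upf3-1 column its mean would be 2.64 RPKM, so it entered the background set through that column alone.

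Other beta-glucosidase genes had patterns of their own. BGLU28 had 42.1 RPKM in lba1 upf3-1, 2.68 in lba1, 8.85 in upf3-1, 0.393 with cycloheximide, 11.1 in mock and 13.04 in wild type, on the same side of its control as DIN2 except in upf3-1 and mock. BGLU31 and BGLU32 were at 29.2 and 12.7 RPKM with cycloheximide and at most 0.425 RPKM in any other column, lba1 upf3-1 included.

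SEN1, a small protein of the sulfurtransferase family used as a marker of dark-induced senescence, had 26.2 RPKM in lba1 upf3-1, 67.3 in lba1, 30.8 in upf3-1, 9.95 with cycloheximide, 47.1 in mock and 30.7 in wild type. DIN10, of the raffinose synthase family, had 110 RPKM in lba1 upf3-1, 309 in lba1, 172 in upf3-1, 53.4 with cycloheximide, 126 in mock and 123 in wild type. Both genes were highest in lba1 and lowest with cycloheximide, and in lba1 upf3-1 both lay slightly below wild type. The differences from wild type were 1.12 ± 0.06 for SEN1 and 1.32 ± 0.02 for DIN10 in lba1, against −0.23 ± 0.07 and −0.17 ± 0.02 in lba1 upf3-1. With cycloheximide they were at −2.19 ± 0.09 and −1.24 ± 0.03 relative to mock. DIN10 was the most abundant of the 9 genes in every column except lba1 upf3-1, where DIN2 was, and cycloheximide, where MIOX2 was.

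**Figure D2:**
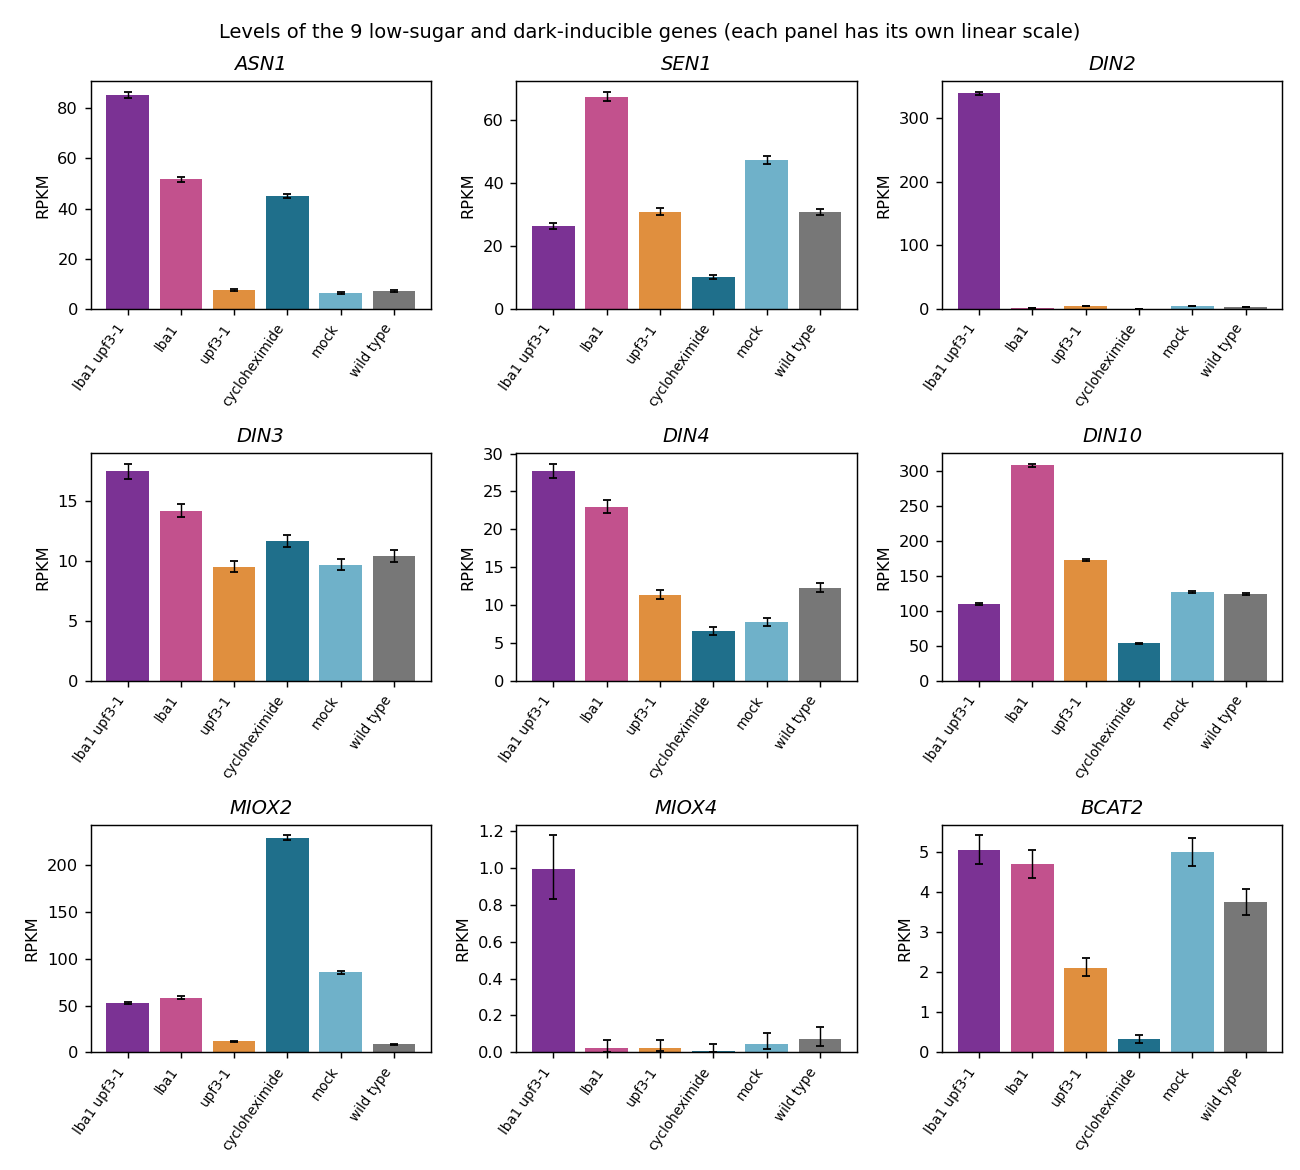
RPKM of each of the 9 genes in the 6 deposited columns on linear axes that start at 0, with 95% Poisson intervals that cover counting error only. ASN1 is high in lba1 upf3-1, lba1 and cycloheximide, DIN2 reaches 339 RPKM in lba1 upf3-1, and SEN1 and DIN10 are highest in lba1 and lowest with cycloheximide.

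DIN3, DIN4 and BCAT2 belong to the breakdown of the branched-chain amino acids leucine, isoleucine and valine. BCAT2 encodes an aminotransferase of the entry step, and DIN4 and DIN3 the E1 beta and E2 subunits of the mitochondrial branched-chain keto acid dehydrogenase, which acts next. DIN4 had 27.7 RPKM in lba1 upf3-1, 23.0 in lba1, 11.3 in upf3-1, 6.55 with cycloheximide, 7.75 in mock and 12.3 in wild type. DIN3 had 17.5 RPKM in lba1 upf3-1, 14.2 in lba1, 9.50 in upf3-1, 11.6 with cycloheximide, 9.67 in mock and 10.4 in wild type, the narrowest range of the 9 genes at 1.84-fold from lowest to highest. BCAT2 had 5.04 RPKM in lba1 upf3-1, 4.68 in lba1, 2.11 in upf3-1, 0.329 with cycloheximide, 4.98 in mock and 3.74 in wild type.

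The E1 beta and E2 subunit genes were in the same order in the 3 mutants, highest in lba1 upf3-1, then lba1, then upf3-1, and only DIN4 passed 2-fold against wild type, in lba1 upf3-1 (1.14 ± 0.09). In lba1 DIN4 reached 0.88 ± 0.09 and DIN3 0.43 ± 0.09, both short of the rule. BCAT2 passed it with cycloheximide (−2.73 ± 0.19 from mock), where neither DIN3 (0.26 ± 0.09) nor DIN4 (−0.23 ± 0.13) did. BCAT2 did not pass the mean of 5 RPKM, and 9.19% of its exon bases lie under another locus.

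Of the 15 other listed genes of branched-chain amino acid breakdown, 5 were higher and 2 lower in lba1 upf3-1 than in wild type, with a median log2 difference of 0.73 (all genes 0.12, with 22.1% higher and 21.2% lower). The higher ones were the electron carrier subunit gene ETFB (1.80), the dihydrolipoamide dehydrogenase gene LPD2 (1.71), MCCA, a subunit of methylcrotonyl-CoA carboxylase in leucine breakdown (1.22), D2HGDH (1.20) and BCDH-BETA1, the paralogue of DIN4 (1.12). LPD1 (−1.39), which also serves photorespiration, and the E1 alpha gene AT5G09300 (−1.46) were lower. Another locus covers 18.5% of the exon bases of BCDH-BETA1 and 12.4% of those of MCCA. In lba1 only MCCA was past 2-fold (28.0 against 10.4 RPKM), where 4.77% of all genes were higher and 1.93% lower. There 11 of the 15 lay above wild type, at a median of 0.28 (all genes 0.08). The share of all genes above wild type was not computed. In upf3-1 none was past 2-fold, beside 3.81% higher and 0.547% lower among all genes. The upf3-1 median was 0.04 (all genes 0.05). Cycloheximide seedlings had 5 lower genes and 0 higher, at a median of −0.80, next to −0.81 for all genes, of which 44.1% were lower.

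**Figure D3:**
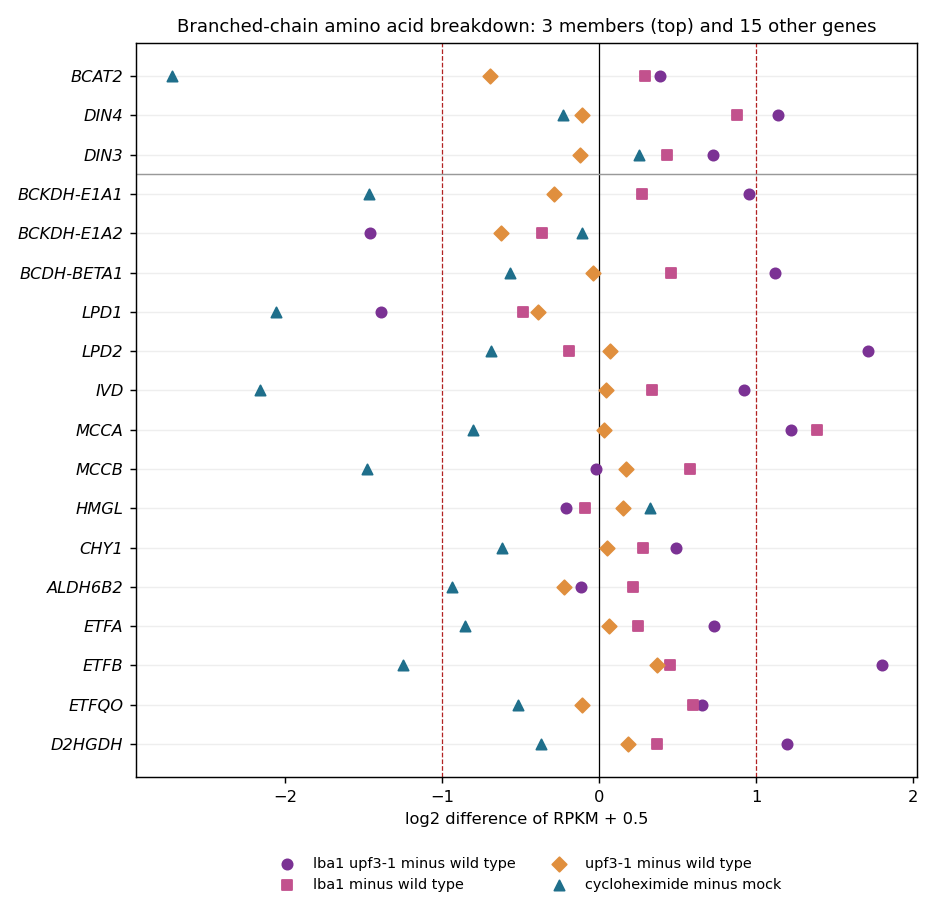
Log2 differences of BCAT2, DIN4 and DIN3 (top) and of 15 other genes of branched-chain amino acid breakdown in 4 comparisons, with 2-fold marked by dashed lines. DIN4 lies at 1.14 for lba1 upf3-1 and 0.88 for lba1 against wild type, and BCAT2 at −2.73 for cycloheximide against mock.

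In the aminotransferase family BCAT2 was the only listed member above wild type in lba1 upf3-1, though short of 2-fold (0.39 ± 0.14). BCAT1 (0.399 against 6.32 RPKM in wild type), BCAT3 (15.5 against 45.5), BCAT4 (7.72 against 59.1) and BCAT6 (1.40 against 5.09) were lower there. BCAT5, like BCAT2, was within 2-fold (6.42 against 7.46). Among all genes 22.1% were higher and 21.2% lower in this comparison. BCAT2 made up 13.8% of the 6 genes' summed RPKM in lba1 upf3-1, 4.90% in lba1, 2.16% in upf3-1, 1.26% with cycloheximide, 6.79% in mock and 2.94% in wild type. BCAT4, whose enzyme acts in methionine-derived glucosinolate synthesis, and BCAT3, a chloroplast enzyme, held most of the sum in wild type. Of the exon bases of BCAT4 21.2% lie under another locus, and of those of BCAT5 19.6%, which limits these shares.

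Counted over the 9 genes, 5 were higher and 0 lower in lba1 upf3-1 than in wild type, where 22.1% and 21.2% of all genes passed the same rule. The 5 were ASN1, DIN2, DIN4, MIOX2 and MIOX4. In lba1, 4 were higher (ASN1, SEN1, DIN10 and MIOX2) and 1 lower (DIN2), where 4.77% and 1.93% of all genes passed. In upf3-1 the numbers were 0 and 0, beside 3.81% higher and 0.547% lower among all genes. The lba1 values include those by which the list was picked, so these counts carry no further weight. Of the 9, 7 passed the mean of 5 RPKM, DIN2 among them through lba1 upf3-1 alone, and MIOX4 and BCAT2 did not. In lba1 upf3-1 against wild type, DIN4 fell short of 2-fold after quantile normalization (0.99) and MIOX4 with a pseudocount of 1 RPKM (0.89). In lba1 against wild type, DIN2 also fell short with that pseudocount (−0.89). The 3 comparisons with wild type share its column.

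Set against each other, the mutants differed gene by gene. In lba1 upf3-1 against lba1, DIN2 and MIOX4 were higher and SEN1 and DIN10 lower, 2 each way (17.7% higher and 22.1% lower among all genes), while MIOX2 (−0.14 ± 0.04) and BCAT2 (0.10 ± 0.13) stood nearly level. In lba1 upf3-1 against upf3-1, 6 were higher and 0 lower (16.6% and 20.9% among all genes): ASN1, DIN2, DIN4, MIOX2, MIOX4 and BCAT2. With a pseudocount of 1 RPKM MIOX4 fell short in both comparisons (0.96 each) and BCAT2 in the one against upf3-1 (0.96), where median scaling also left BCAT2 at 0.98. Between lba1 and upf3-1, 3 were higher in lba1 (ASN1, SEN1 and MIOX2; 0.945% of all genes) and 1, DIN2, was lower (3.84% of all genes). DIN4 (0.99 ± 0.09) and BCAT2 (0.99 ± 0.16) were within counting error of the 2-fold line in that comparison. ASN1 and MIOX2 ranked 7th and 13th from the top of 14079 genes there. Their high lba1 levels were known when the list was picked, so these ranks carry no further weight.

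With cycloheximide, 2 of the 9 were higher than in mock (ASN1 and MIOX2) and 4 lower (SEN1, DIN2, DIN10 and BCAT2), where 13.3% of all genes were higher and 44.1% lower. The median of all genes lay at −0.81 in this comparison, and 23.1% of the genes past 2-fold were higher as deposited, 51.8% once that median was set to 0. Relative to it, ASN1 was at 3.63, MIOX2 at 2.29 and DIN3 at 1.10, all higher. DIN2 at −2.96, BCAT2 at −2.31 and SEN1 at −1.35 were lower, and DIN10 at −0.37 was no longer past the rule. On that scaling 3361 of the 14079 genes were higher and 3130 lower. After quantile normalization DIN10 stayed lower. For mock against wild type, 1 was higher (MIOX2) and 0 lower, beside 14.2% and 11.9% of all genes. There 54.3% of genes past 2-fold were higher as deposited and 44.2% with the median of 0.15 removed. The remaining medians of over 0.1 were 0.12 for lba1 upf3-1 against wild type and 0.11 for it against upf3-1. Quantile normalization gave 57.9% higher for lba1 against wild type in place of 71.2%, and 39.9% for cycloheximide against mock.

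**Figure D4:**
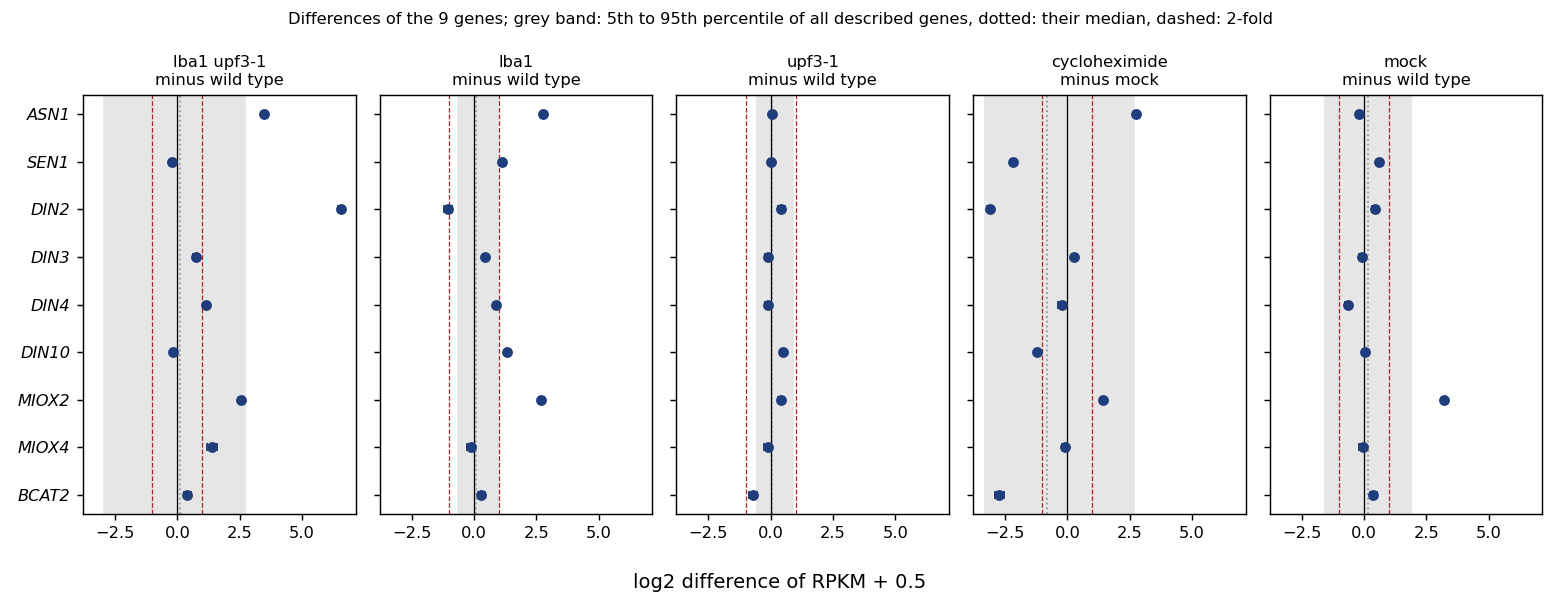
Log2 differences of the 9 genes in 5 comparisons, with 95% counting error (mostly smaller than the points), the 5th to 95th percentile of all 14079 genes in grey, their median dotted and 2-fold dashed. DIN2 at 6.55 and ASN1 at 3.48 are the points farthest right for lba1 upf3-1, ASN1 at 2.76 and MIOX2 at 2.67 for lba1, and MIOX2 at 3.21 for mock.

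Other listed genes known to respond to low energy were mostly above wild type in lba1. The listed genes known to be induced by sugar were all below it. The share of all genes on either side of wild type was not computed, so these directions have no background beside them. Of 21 listed low-energy genes 20 were measured (0.5 RPKM or more on average). In lba1, 4 of them were higher, 0 lower, and 17 of 20 above wild type, at a median of 0.57 (all genes 0.08, with 4.77% higher and 1.93% lower). DRM1, a dormancy-associated gene, was at 156 RPKM in lba1 against 54.9 in wild type, and BXL1, a sugar-repressed beta-xylosidase gene, at 101 against 40.8. The RING protein gene CHYR1 (62.0 against 27.4 RPKM) and GDH2 (150 against 71.1) were the other 2. GDH2 and PRODH1 are also on the list of asparagine, glutamate and proline metabolism genes. In upf3-1 the F-box gene KMD1 alone was higher (63.2 against 30.4 RPKM), and the median was 0.39 (all genes 0.05, with 3.81% higher).

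The 7 sugar-inducible genes had a median of −1.60 in lba1 (all genes 0.08), with 5 lower and 0 higher, beside 1.93% lower and 4.77% higher among all genes. BAM5, the beta-amylase after whose low level lba1 is named, was at 0.983 RPKM in lba1 against 59.2 in wild type. GPT2, a glucose-6-phosphate carrier of plastids, was at 3.16 RPKM in lba1 against 28.1 in wild type. The anthocyanin genes DFR (12.7 against 40.7 RPKM) and LDOX (13.8 against 42.8) were lower, as was APL3, a subunit of ADP-glucose pyrophosphorylase (6.72 against 15.2). In upf3-1, 1 was higher (BAM5, 153 against 59.2 RPKM) and 1 lower (GPT2, 12.7 against 28.1), with a median of −0.51, beside 3.81% higher and 0.547% lower among all genes. The lists were drawn up with earlier results known, BAM5 among them, and are not independent evidence.

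In lba1 upf3-1, 4 of the 20 low-energy genes were higher than in wild type (GDH2, PRODH1, DIN9 and TPS11) and 4 lower (DRM2, BXL1, CHYR1 and KMD1), with a median of −0.21 (all genes 0.12). These shares are near those of all genes, 22.1% higher and 21.2% lower. BXL1 was at 10.4 RPKM in lba1 upf3-1 against 40.8 in wild type, the opposite side from lba1. DIN9, a phosphomannose isomerase gene of the dark-inducible set, was at 12.9 against 3.44 RPKM. Of the sugar-inducible genes, at a median of −0.87, 1 was higher (GPT2, 99.4 against 28.1 RPKM) and 3 lower, the anthocyanin genes CHS, DFR and LDOX.

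Both lists had medians below 0 in mock. In mock against wild type 4 low-energy genes were higher and 7 lower (median −0.56, all genes 0.15, with 14.2% higher and 11.9% lower), with BGAL4 (2.45 against 17.4 RPKM) and BXL1 (6.82 against 40.8) lowest, and DIN11 (15.2 against 1.20) highest. Of the sugar-inducible genes 6 of 7 were lower and GPT2 higher (94.7 against 28.1 RPKM), at a median of −1.64, against the same shares of all genes. With cycloheximide 1 low-energy gene, PRODH1, was higher than in mock and 9 lower, at a median of −0.93, close to the −0.81 of all genes, of which 44.1% were lower. TPS11, of the trehalose phosphate synthase family, was at 2.18 against 28.9 RPKM. KMD4 had the lowest difference (0.790 against 35.8 RPKM), but 100% of its exon bases lie under another annotated locus. For BGAL4 that share is 23.8%.

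**Figure D5:**
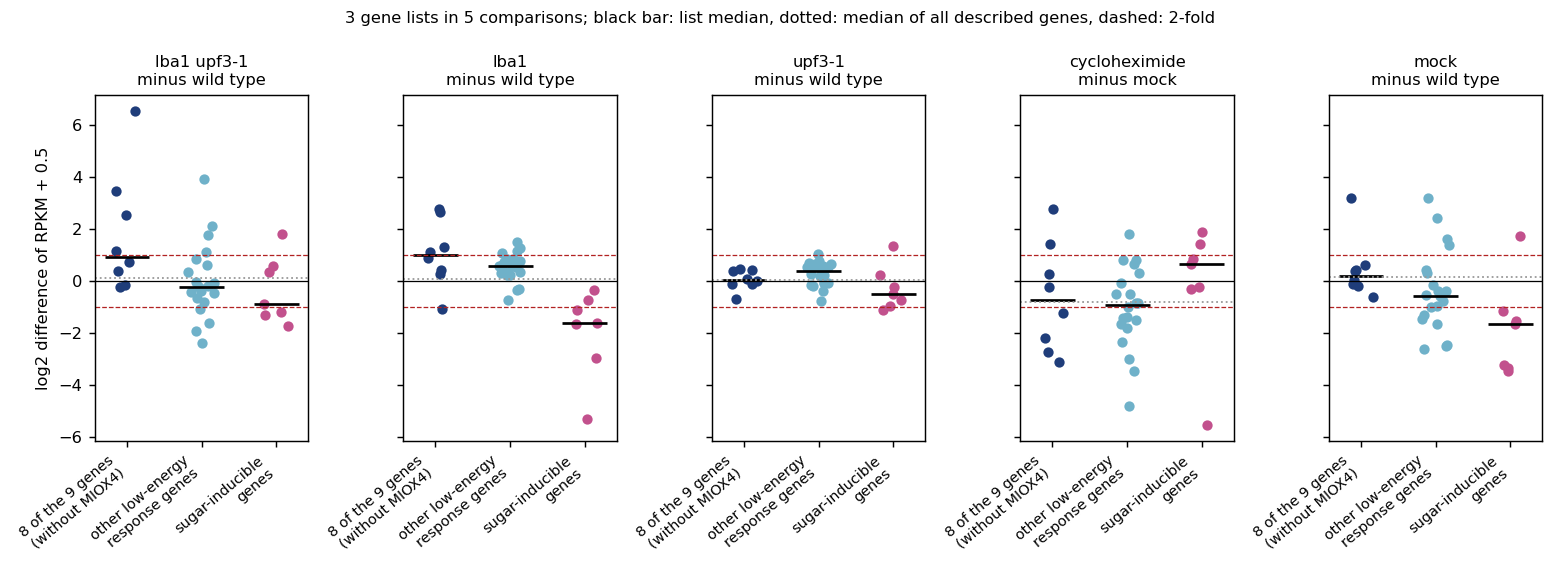
Log2 differences in 5 comparisons for 8 of the 9 genes (MIOX4, with a mean under 0.5 RPKM, is left out), 20 other low-energy genes and 7 sugar-inducible genes, with list medians as black bars, the median of all genes dotted and 2-fold dashed. In lba1 the list medians are 1.00, 0.57 and −1.60.

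Transcripts of the SnRK1 kinase and of the bZIP factors that act with it were measured only in part. KIN10 had 14.5 RPKM in lba1 upf3-1, 16.7 in lba1, 13.8 in upf3-1, 6.42 with cycloheximide, 16.4 in mock and 14.6 in wild type. KIN11 was likewise within 2-fold of wild type in the 3 mutants. The regulatory subunit gene KINBETA1 was higher in lba1 (23.5 against 9.61 RPKM in wild type). It was 1 of 10 measured, with 0 lower, beside 4.77% and 1.93% of all genes. Among the bZIP genes, bZIP25 was higher in lba1 upf3-1 (73.1 against 20.7 RPKM), whereas bZIP63 (5.99 against 21.7) and bZIP9 (8.73 against 23.8) were lower there. No other of the 10 passed 2-fold there, where 22.1% of all genes were higher and 21.2% lower. With cycloheximide 7 of the 10 were lower than in mock and 1, bZIP63, higher (44.1% and 13.3% of all genes). The group S1 genes bZIP1, bZIP2, bZIP11, bZIP44 and bZIP53 are listed at 0 in all 6 columns. No level can be read from these entries.

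The genes whose profile over the 6 columns lay closest to the median profile of the 9 were SWEETIE, AT2G46560, AT1G73430, AGL31 and AT3G11100, at root mean square distances of 0.12 to 0.17 on the centred log2 scale. That median profile was highest in lba1 upf3-1 (0.72) and lba1 (0.62) and lowest with cycloheximide (−0.93), with upf3-1 (−0.28), mock (−0.17) and wild type (−0.15) between. Several members departed from it. With cycloheximide ASN1 (1.12) and MIOX2 (2.39) were high and DIN3 was near its mean (−0.02). DIN2 was at 5.94 in lba1 upf3-1 and −1.68 in lba1. SEN1 (−0.21) and DIN10 (−0.25) were below their means in lba1 upf3-1. The median also takes in MIOX4 and BCAT2, which did not pass the mean of 5 RPKM, and MIOX4 had few reads outside lba1 upf3-1. In upf3-1 and wild type the median was the value of MIOX4 itself, which rested there on about 3 and 9 reads. In lba1 upf3-1 and lba1 it was the value of BCAT2. How far the nearest genes depend on MIOX4 and BCAT2 was not tested. For the profile of ASN1 itself, the nearest gene was AT5G49500 at a distance of 0.69, followed by AT1G61490, AT3G60286, AT4G01740 and AT2G01330. AT5G49500 had 16.0 RPKM in lba1 upf3-1, 11.5 in lba1, 6.47 in upf3-1, 14.3 with cycloheximide, 2.21 in mock and 2.01 in wild type.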

How the data were processed

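The members and all gene lists were chosen with earlier results of these data known. The authors deposited gene expression as RPKM, in 1 column for each of 6 groups of 2 libraries (12 in all). Per the submitters' processing notes, the build was TAIR10. The aligner, the counting rules and the way libraries were pooled are not given in the sources used. Of 33602 loci, 32835 were found in the RefSeq TAIR10.1 annotation, which gave names, exon lengths and overlaps. Column totals were estimated from whole-read steps of 623 transfer RNA loci (values up to 8 reads, tolerance 0.05 of a read plus rounding), and 94.2% to 97.4% of the 86 to 114 values used per column came out whole. Read numbers, exact 95% Poisson intervals and counting errors follow from these totals and cover counting error only. With 1 column a group no test could be run, and the rule of 2-fold on log2(RPKM + 0.5) stands in its place. Named genes were the members, the 2 highest and 2 lowest of each list in each comparison among genes averaging 5 RPKM or more, list genes that complete a role beside a member, the 5 nearest profiles, UPF3 and UPF1. Other list genes named beside a count were chosen after their values were seen. Alternatives were pseudocounts of 0.1 and 1 RPKM, median scaling, quantile normalization, thresholds of 1.5-fold and 4-fold, and other filters. Python 3.11.15, numpy 2.4.6, pandas 2.3.3 and scipy 1.17.1 were used.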

Additional observations from a re-analysis of the deposited data

Results flagged for a closer look

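For 3 of the 9 genes the effect of lba1 pointed in opposite directions, each beyond counting error, when measured in the upf3-1 background (lba1 upf3-1 against upf3-1) and in the wild-type background (lba1 against wild type). DIN2 was at 6.13 in the upf3-1 background and −1.07 in the wild-type background on the log2 scale. SEN1 was at −0.23 in the upf3-1 background and 1.12 in the wild-type background. DIN10 was at −0.65 in the upf3-1 background and 1.32 in the wild-type background. In the upf3-1 background SEN1 and DIN10 fell short of 2-fold. Both lay between the 5th and 95th percentiles of all genes there (−2.90 and 2.16). The share of all genes with opposite directions by this measure was not computed, so the count of 3 has no background beside it. The difference between backgrounds was not tested, because each group is 1 column. Green leaf markers summed to 597 RPKM in lba1 upf3-1, 13690 in lba1, 15172 in upf3-1 and 16799 in wild type, and their part in these values was not tested.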

How the results depend on the processing

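No paired analysis was possible because the table holds 1 column for each group, and for the same reason no library could be left out. None of the member differences past 2-fold changed sign under the pseudocounts and scalings tried. Of 96 recounts of members past the fold, 80 stayed within 1.5 times the count given. With a pseudocount of 1 RPKM, 0 members were lower in lba1 than in wild type (DIN2 fell short) and 1 was higher in lba1 upf3-1 than in lba1, while 4 were higher in lba1 upf3-1 than in wild type (without MIOX4) and 4 higher than in upf3-1 (without MIOX4 and BCAT2). With a pseudocount of 0.1 RPKM, 5 were higher in lba1 than in upf3-1, DIN4 and BCAT2 joining. At 1.5-fold, 6 were higher in lba1 than in upf3-1, 1 lower in upf3-1 than in wild type, 1 lower in lba1 upf3-1 than in upf3-1, and 2 higher and 1 lower in mock than in wild type. At 4-fold, 2 were higher and 0 lower in lba1 than in wild type, 3 higher in lba1 upf3-1 than in wild type, 1 higher and 0 lower in lba1 upf3-1 than in lba1, 3 higher in lba1 upf3-1 than in upf3-1, 0 lower in lba1 than in upf3-1, and 1 higher with cycloheximide than in mock. Shares of all genes at 1.5-fold, at 4-fold or with other pseudocounts were not computed, so these recounts have no background beside them. For cycloheximide against mock, the share of all genes at least 2-fold higher was 23.9% after median scaling, in place of 13.3%. The share lower was 22.2% after median scaling and 27.5% after quantile normalization, in place of 44.1%. Depth limits MIOX4 in every column but lba1 upf3-1, and DIN2 with cycloheximide. Counting error says nothing of the spread between plants, which these columns cannot show.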
